A study of Bos taurus with 8 samples.

Results

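Genes of the bone morphogenetic protein (BMP) pathway were followed in bovine granulosa cells cultured with or without follicle-stimulating hormone (FSH). The set holds 10 genes: the ligands BMP2 and BMP4, the secreted antagonists NOG and GREM1, the pseudoreceptor BAMBI, the inhibitory SMADs SMAD6 and SMAD7, and the targets ID1, ID2 and ID3. Their probes were found by gene symbol in the platform annotation, which gave 16 of the 43794 gene probes: 3 for BAMBI, 5 for ID3 and 1 for each of the other 8 genes. All 16 probes were among the 36531 that passed the filter on dim probes. The genes were chosen by their ratios and levels in these same arrays, BAMBI above all, so their values are a description and support no test.

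BMPs are secreted dimers that bind type I and type II receptor kinases, which phosphorylate SMAD1, SMAD5 and SMAD9. With SMAD4 these factors switch on target genes, of which the ID genes are among the most direct, and they also raise SMAD6, SMAD7 and BAMBI, which then dampen the signal. Noggin and gremlin hold the ligand outside the cell. In the ovarian follicle BMPs made by theca, granulosa cells and oocyte are known for tuning the response of granulosa cells to FSH and for holding back progesterone output.

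Follicles with a diameter of 2 to 6 mm were cut open after single dissection from slaughterhouse ovaries of cattle, and the mesh-filtered cells were cultured for 48 h. Treated cultures received FSH at 1 ng/ml for the last 4 h, and control cultures received none. Each of 8 two-colour arrays compared 1 control with 1 treated RNA, both amplified beforehand. The treated RNA carried Cy5 on 4 arrays and Cy3 on the other 4. Arrays with the same replicate number in the labels form 4 dye-swap pairs, numbered 1 to 4. Several follicles went into a replicate, and no sort of the cells is described. The labels name 8 biological replicates in one place and 4 control and 4 treated ones in another, and n = 4 below takes same-numbered arrays as 1 replicate. Nothing in the labels ties the treated and the control culture of a number to the same ovaries, so a ratio may also hold differences between ovaries. The spread between replicates may be partly technical as well.

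The share of gene probes brighter than the negative control spots was 71.4% to 84.2%, depending on array and channel, and the number of arrays limits the precision. Of 9 granulosa markers, 8 were above the negative controls in all 16 array channels. The exception was the transcription factor FOXL2, in 5 of 8 FSH and 7 of 8 control channels. Replicate 3 stood apart from the others. For NR4A1, an early gene of the FSH response that serves here as a check of the labels, replicates 1 to 4 gave log2 ratios (FSH over control) of 3.22, 4.37, 0.13 and 4.10. The NR4A1 level in the library labelled control of replicate 3 was 14.89, against 10.89 to 11.25 in the other controls and 14.47 to 15.26 with FSH. Other genes higher with FSH were divided on the place of that library. PLK2 and EGR1, listed below for their likeness to BAMBI, had levels of 12.65 and 10.72 in it. Both values lay within the range of the FSH group. The aromatase gene CYP19A1 and the inhibin subunit gene INHBB had ratios of 0.22 and 0.38 in replicate 3, for each the smallest of its replicates. The INHBB level in that control, 12.30, lay within the range of the other controls and below every FSH level. The CYP19A1 level, 8.13, lay within the range of the other controls and also within the FSH range of 7.90 to 9.70, so it does not place that library. Results below are therefore given with and without replicate 3, and values without it rest on a choice made after the outcome was seen.

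BMP2, a ligand made by granulosa cells, was higher with FSH in 3 of the 4 replicates. The channel level, a log2 intensity after scaling, was 13.00, 10.30, 12.94 and 11.31 in the controls of replicates 1 to 4. With FSH it was 13.86, 14.36, 12.89 and 13.58. The controls thus differed by 2.70, a wider range than for 99.3% of all tested probes, while the FSH levels lay within 1.47. The FSH and control levels overlapped only through replicate 3, whose FSH level of 12.89 fell below the control of replicate 1. In unscaled intensity the control channel of replicate 2 read 1280 and 1393 on its pair of arrays, and the FSH channel 21591 and 17702.

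The log2 ratio of FSH over control for BMP2 was 0.86, 4.06, -0.05 and 2.27 in replicates 1 to 4, with a mean of 1.79 ± 0.71 (SE, n = 4 replicates), or 3.45-fold. Without replicate 3 the mean was 2.40 ± 0.66, or 5.27-fold. The dye made little difference: with FSH in Cy5 the mean was 1.82 and with FSH in Cy3 it was 1.76. The replicate with the lowest control level also had the largest ratio. Without replicate 2 the mean went down to 1.03. RNA of whole cultures was measured, so fewer cells of a type and less RNA per cell cannot be told apart, here and for every gene below.

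BMP4, the ligand that theca cells are known for, gave a weak signal at 1.04 to 1.89 times the threshold set by the negative control spots (their 95th percentile in that channel). Its level was 7.80, 7.06, 7.18 and 6.96 in the controls and 7.75, 6.97, 7.85 and 7.22 with FSH. The groups overlapped, and the ratio was above 0 only in replicates 3 and 4, at 0.67 and 0.26. The mean was 0.20 ± 0.15, and 0.04 without replicate 3. Ratios of such dim probes are compressed, and the replicates did not share a sign. A difference was therefore not established, which does not make it absent.

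NOG, the gene of noggin, which binds BMP2 and BMP4 and keeps them from their receptors, was the only member higher with FSH in all 4 replicates by its brightest probe. Its level was 6.81, 6.84, 7.70 and 6.72 in the controls and 7.27, 8.27, 8.03 and 7.83 with FSH. The control of replicate 3 stood above the FSH level of replicate 1, and the other 3 controls lay below every FSH level. The log2 ratio was 0.46, 1.43, 0.34 and 1.11, with a mean of 0.83 ± 0.21 (SE, n = 4 replicates), or 1.78-fold, and it was above 0 on 8 of 8 arrays. Without replicate 3 the mean was 1.00 ± 0.21.

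NOG was dim. Its probe exceeded the negative controls in 8 of 8 FSH channels and in 6 of 8 control channels, at 0.951 to 2.38 times their 95th percentile. The ratio is compressed by that floor: it was 0.64 with no background correction and 1.12 with a smaller offset of 10.

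GREM1, the gene of gremlin, an antagonist that cumulus cells are known to make, showed almost no spread. The levels were 7.32, 7.21, 7.34 and 7.17 in the controls and 7.21, 7.27, 7.32 and 7.29 with FSH. The mean log2 ratio was 0.01 ± 0.05. Its sign followed the dye, with a mean of -0.19 with FSH in Cy5 and 0.22 with FSH in Cy3. The signal was 1.15 to 1.44 times the threshold of the negative controls, so a change of GREM1 was not measurable here.

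BAMBI, a membrane protein that resembles a type I receptor but lacks the kinase, had the highest ratio of the set. By its brightest probe the level was 9.75, 8.94, 13.09 and 9.05 in the controls of replicates 1 to 4, and 11.82, 13.89, 13.00 and 13.65 with FSH. The library labelled control of replicate 3 lay within the range of the FSH group, and the other 3 controls lay at least 2 log2 units below every FSH level. The control range of 4.14 was wider than for 99.9% of tested probes.

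The log2 ratio for BAMBI was 2.07, 4.94, -0.08 and 4.60, with a mean of 2.88 ± 0.93 (SE, n = 4 replicates), or 7.38-fold. Without replicate 3 the mean was 3.87 ± 0.64, or 14.6-fold. In unscaled intensity the control channel of replicate 2 read 620 and 522, and the FSH channel 15324 and 12821. In replicate 3 the control channel read 8340 and 8839 and the FSH channel 8968 and 7997. Both arrays of that pair therefore gave the same picture, with the dyes exchanged.

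The other BAMBI probes followed the same order of replicates. Probe 2 had log2 ratios of 1.82, 4.54, 0.07 and 3.00, with a mean of 2.36 ± 0.75. Probe 3, the dimmest, had 0.33, 0.97, 0.08 and 0.69, with a mean of 0.51 ± 0.16. In all 3 probes replicate 2 had the largest ratio and replicate 3 the smallest. Probe 3 exceeded the negative controls in 8 FSH channels but only 5 control channels, and its signal was at most 1.83 times their threshold. The difference in size between these probes went with their brightness.

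**Figure D1:**
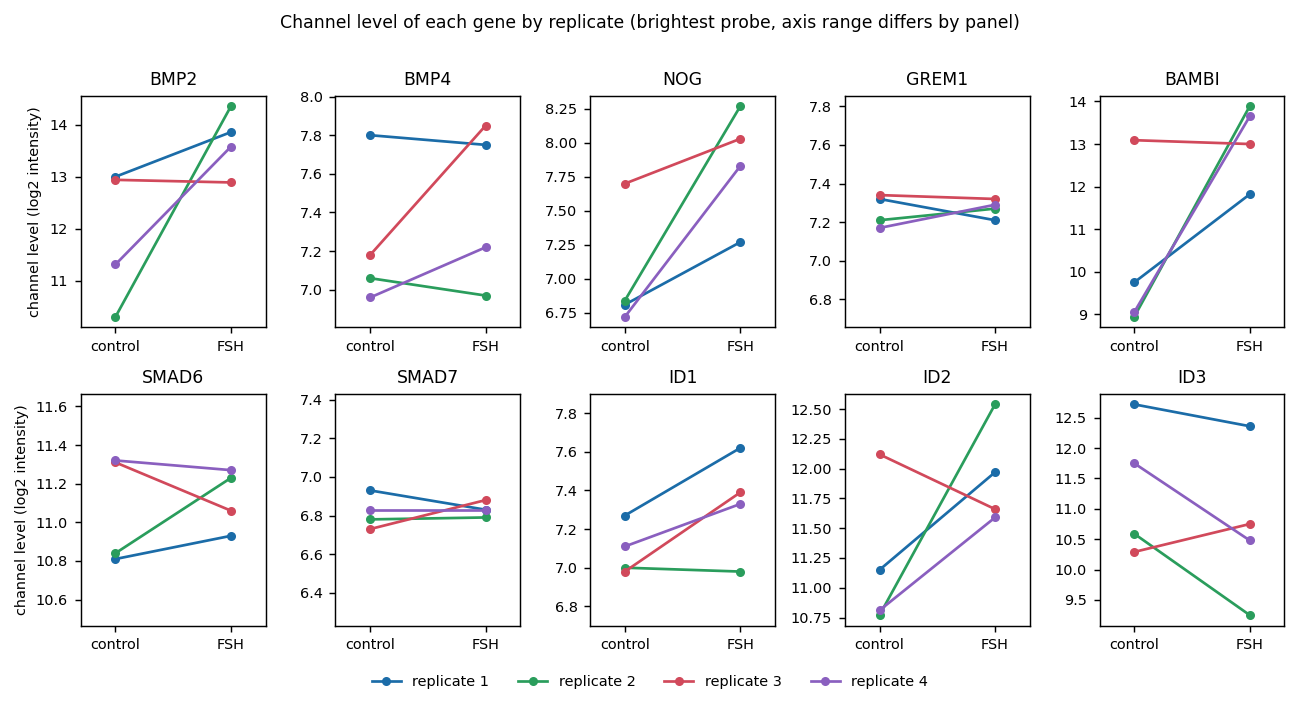
Channel level (log2 intensity, brightest probe) of each of the 10 genes in control and FSH, with a line for each of the 4 replicates and an axis range of its own for each panel. In BAMBI and NOG the control of replicate 3 (13.09 and 7.70) sits far above the other 3 controls, in BMP2 it is near that of replicate 1, and in ID3 replicate 3 (10.29 to 10.75) runs against the others.

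SMAD6, which competes for SMAD1 and blocks BMP receptors, gave a bright signal, 8.06 to 24.8 times the negative control threshold. Its level was 10.81, 10.84, 11.31 and 11.32 in the controls and 10.93, 11.23, 11.06 and 11.27 with FSH. The groups overlapped completely. The mean log2 ratio of 0.05 ± 0.11 (SE, n = 4 replicates) averages over a dye effect: it was -0.83 ± 0.16 (SD, n = 4 arrays) with FSH in Cy5 and 0.93 ± 0.40 with FSH in Cy3. In unscaled intensity the Cy3 channel read 2871 to 3816 on all 8 arrays and the Cy5 channel 1099 to 2078, whichever RNA it held. The balanced dye swap removes this from the mean as far as it was equal in both orientations, but the ratio of any single array follows the dye.

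SMAD7, which blocks both BMP and TGF-beta receptors, was above the negative controls in only 5 of 8 FSH and 6 of 8 control channels. Its signal never exceeded 1.09 times their threshold. Levels lay between 6.73 and 6.93, and the mean log2 ratio was 0.02 ± 0.06. A difference of SMAD7 was not detectable.

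The ID genes encode helix-loop-helix proteins without a DNA-binding region, which trap other transcription factors, and their RNA is widely used as a readout of BMP signalling. Here the 3 genes did not share a sign and size. ID2 had a positive mean ratio, ID3 a negative one, and ID1 a small positive one near background.

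ID2 stood at 11.15, 10.77, 12.12 and 10.81 in the controls and at 11.97, 12.54, 11.66 and 11.59 with FSH. The control of replicate 3 was the highest control and exceeded 3 of the 4 FSH levels, and the other 3 controls lay below every FSH level. The log2 ratio was 0.83, 1.77, -0.46 and 0.79, with a mean of 0.73 ± 0.36 (SE, n = 4 replicates), or 1.66-fold. Without replicate 3 the mean was 1.13 ± 0.23, or 2.18-fold, and without replicate 2 it was 0.39. Both dye orientations gave the same sign in every replicate, with means of 0.82 and 0.64.

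ID3, by its brightest probe, stood at 12.72, 10.59, 10.29 and 11.75 in the controls and at 12.36, 9.25, 10.75 and 10.48 with FSH. Differences between replicates were larger than those between treatments: replicate 1 was the highest in both groups, the control range was 2.43 and the FSH range 3.11. The log2 ratio was -0.36, -1.34, 0.46 and -1.27, with a mean of -0.63 ± 0.34 (SE, n = 4 replicates), or 0.648-fold. Without replicate 3 the mean was -0.99 ± 0.23, or 0.503-fold, while it was -0.39 without replicate 2 and -0.41 without replicate 4. Averaged over all 5 ID3 probes it was -0.20.

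The control of replicate 3 was the lowest of the 4 controls for ID3 and the highest for BAMBI, NOG and ID2. In BAMBI, NOG and ID2 it therefore lay towards the FSH levels. For ID3 it lay towards the lower FSH mean, but the FSH levels of 9.25 to 12.36 overlapped the controls. ID1, with a positive mean ratio, went the other way, with its lowest control in replicate 3 at 6.98. In BMP2 that control, at 12.94, was just below the one of replicate 1.

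Of the other ID3 probes, probe 3 had the same pattern at a smaller size, with log2 ratios of -0.12, -0.31, 0.04 and -0.60. Probes 2, 4 and 5 had means of -0.03, 0.00 and -0.10. They were dim, at most 2.14 times the negative control threshold. Probe 5 read -0.86 with FSH in Cy5 and 0.66 with FSH in Cy3, so its single-array values follow the dye.

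ID1 was near background, at 1.02 to 1.73 times the negative control threshold. Its level was 7.27, 7.0, 6.98 and 7.11 in the controls and 7.62, 6.98, 7.39 and 7.33 with FSH. The groups overlapped. The log2 ratio was 0.34, -0.02, 0.41 and 0.21, with a mean of 0.24 ± 0.08 (SE, n = 4 replicates), and 0.18 without replicate 3. Unlike ID2, ID1 was above 0 in replicate 3 and not in replicate 2, and the probe is too dim to give the size of a change.

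**Figure D2:**
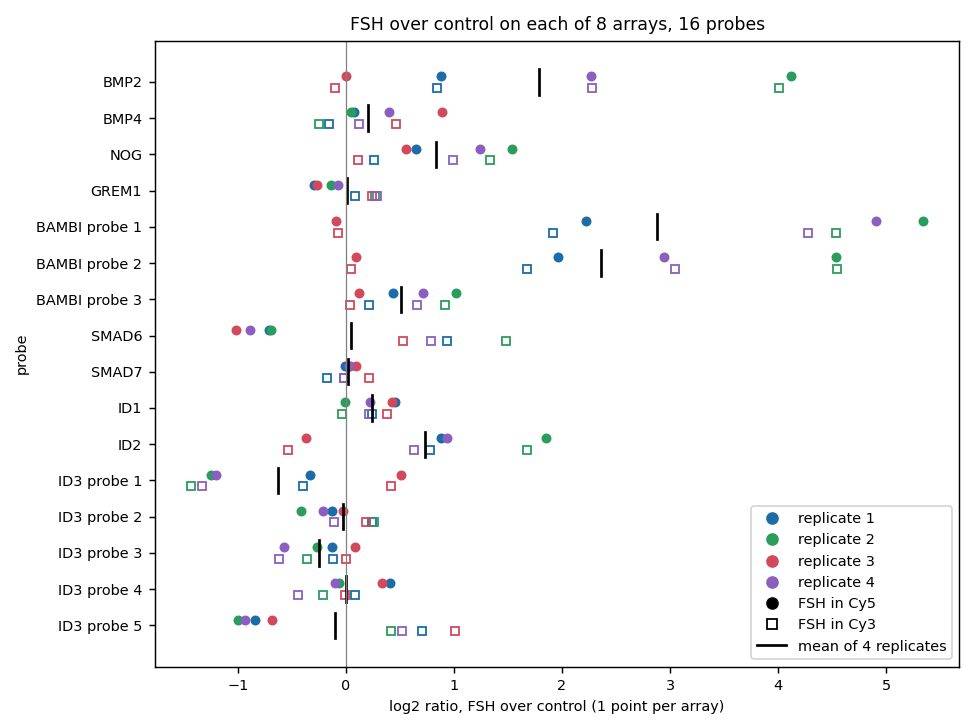
Log2 ratio of FSH over control on each of the 8 arrays for all 16 probes, coloured by replicate, with filled circles for FSH in Cy5, open squares for FSH in Cy3 and a bar at the mean of the 4 replicates. Pairs of arrays lie close together for BMP2, BAMBI, ID2 and ID3 probe 1, while SMAD6 and ID3 probe 5 split by dye into a group below 0 and a group above 0.

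Set against the whole array, 0 of the 16 probes passed an adjusted p under 0.05 with limma over the 4 replicate means, as did 0% of the 36531 tested probes. The lowest adjusted p over all tested probes was 0.204, and 4441 probes had an unadjusted p under 0.05. In a fit of all 8 arrays with a random effect of replicate and a term for the dye (the blocked fit), 1 member gene, NOG, passed, against 3.41% of all probes and 5.06% of the 13592 named genes, each read from its brightest probe. Without the dye term NOG and BAMBI passed, against 3.9% of probes and 5.85% of named genes. On the 4 arrays with FSH in Cy5 alone NOG and SMAD6 passed, against 5.41% of probes and 5.05% of named genes, and there the SMAD6 value is the one that turned with the dye. With replicate 3 left out of the blocked fit with a dye term, BMP2, NOG, BAMBI, ID2 and ID3 passed, against 7.14% of probes and 10.8% of named genes. The same contrast chose these genes and the outcome chose the replicate, so nothing is read from these counts. The blocked fits use 1 correlation for all probes. With the dye term their SE was smaller for BAMBI, at 0.68 against 0.93, and larger for SMAD6, at 0.13 against 0.11.

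By size, 2 of the 10 genes, BMP2 and BAMBI, had a mean log2 ratio of 1 or more in either direction, against 0.52% of tested probes and 0.92% of named genes. A shared sign in all 4 replicates was found for 1 of 10 genes, against 20.3% of tested probes and 22.3% of named genes. Control and FSH levels were without overlap for 0 of 10 genes, against 2.95% of probes and 3.26% of named genes. With replicate 3 left out they did not overlap for 4 of 10 genes, which were BMP2, NOG, BAMBI and ID2, against 13.1% of probes and 16.2% of named genes. The mean was above 0 for 9 of 10 genes and below 0 for ID3, while 6535 of all named genes were above 0. In replicate 3 alone 5 of the genes were above 0 and 5 below. The median log2 ratio of the 10 genes was 0.22, with 0.23, 0.23, 0.07 and 0.24 in replicates 1 to 4, against -0.00466 for all named genes.

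The rest of the pathway was read from a list of 71 other genes, of which 52 had a tested probe, and the other 19 were not analysed here. Neither the replicate means nor the blocked fit gave any of the 52 genes an adjusted p under 0.05, and none had a mean log2 ratio of 1 or more. Above 0 were 26 genes and below 0 also 26, with a median of 0.00. The medians by role were -0.01 for 10 ligands, 0.01 for 11 antagonists and 0.00 for 12 receptors. For 12 signal transducers and their brakes the median was 0.05, and for 7 genes listed as targets it was -0.07. The ligand list also holds BMP1, which is a protease despite its name. The target list also holds TCF12, at -0.17, a transcription factor of the kind that ID proteins trap. The range of the 52 genes ran from -0.76 to 0.41. It was narrower than that of the 10 genes above, but those were chosen by their ratios in these same arrays.

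The largest of these was FST, the gene of follistatin, which binds activin and also BMPs. Its log2 ratio was -0.55, -1.47, 0.22 and -1.24 in replicates 1 to 4, with a mean of -0.76 ± 0.30. Its level in the control of replicate 3 was 11.71, against 12.62 to 13.72 in the other controls and 11.93 to 12.25 with FSH. That control thus lay below every FSH level of FST, and the other controls lay above them.

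FSTL3, a secreted relative of follistatin, was above 0 in all 4 replicates with a mean of 0.41 ± 0.13. SMAD1, a receptor-activated SMAD of the BMP branch, was also above 0 in all 4, with ratios of 0.46, 0.41, 0.16 and 0.09 and a mean of 0.28 ± 0.08. BMPER, a secreted BMP-binding protein, was below 0 in all 4 at a mean of -0.27 ± 0.08 by its brightest probe. Its dimmer probes were at -0.08 and 0.10.

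The type I receptor ACVR1 was at 0.35 ± 0.20 by its brightest probe, with 0.42 and 1.02 in replicates 1 and 2 and -0.01 and -0.03 in replicates 3 and 4. Its dimmer probe was below 0 in every replicate, from -0.24 to -0.02, with a mean of -0.09. TWSG1, which binds BMPs together with chordin, was at -0.31 ± 0.22 by its brightest probe and at 0.06 and 0.19 by its others. Replicates of both genes disagreed in sign by the brightest probe. With replicate 3 left out of the blocked fit, FST, BMPER and the receptor BMPR1A passed and were lower with FSH. These are 3 of 52 genes, against 10.8% of all named genes in that fit. BMPR1A, named here after its value was seen, had ratios of -0.63, -0.36 and -0.31 in replicates 1, 2 and 4 and 0.77 in replicate 3. These are from the brightest of its 3 tested probes, and the others are not given here.

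**Figure D3:**
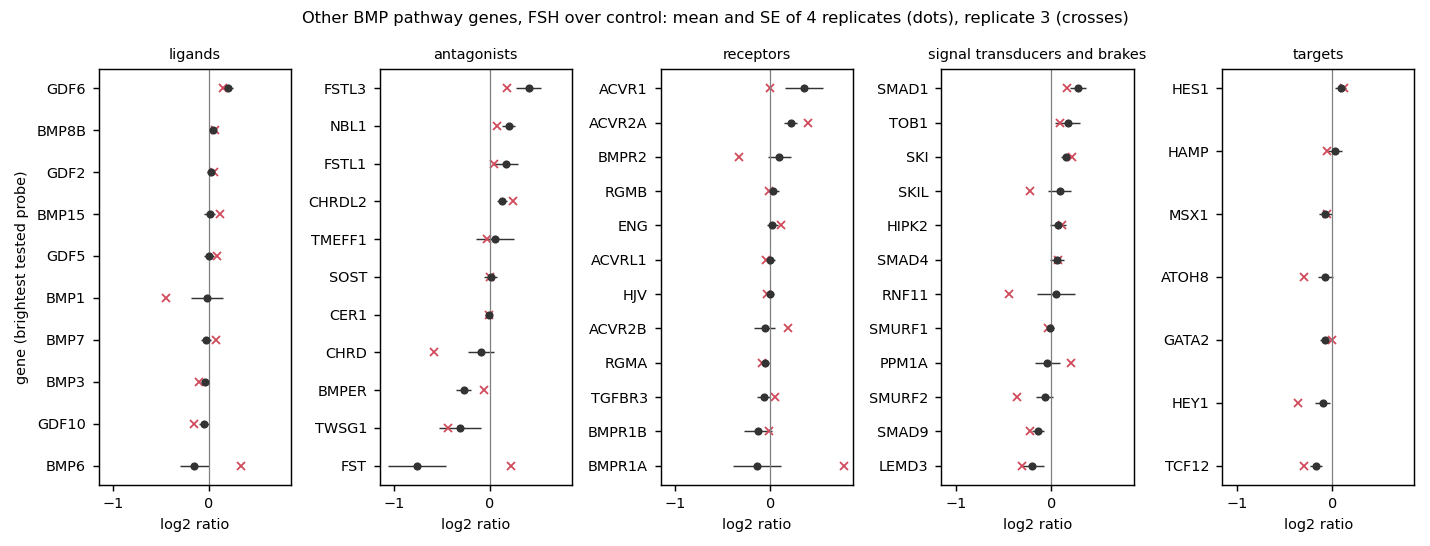
Log2 ratio of FSH over control for 52 other BMP pathway genes by role, as mean and SE of 4 replicates (dots with bars), with replicate 3 alone as a cross. Most means lie close to 0, FST is the lowest at -0.76 with replicate 3 on the other side of 0, and FSTL3 is the highest at 0.41.

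Markers of other ovarian cells were read beside these values, since theca, stroma and oocytes also make BMPs. Levels of different probes cannot be set against each other, so each list is given as its mean level across samples. The 6 theca markers averaged 8.53 to 9.03 in the controls and 8.67 to 8.96 with FSH. CYP17A1, which defines theca cells, was above the negative controls in 15 of the 16 channels, and its ratio was within 0.05 of 0 in every replicate. Its levels of 6.90 to 7.01 were near background, close to those of SMAD7, so a change of CYP17A1 was not measurable. Among the other theca markers STAR, which granulosa cells also come to express, had a mean log2 ratio of 0.49 and the hedgehog receptor PTCH1 one of -0.50.

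The 5 fibroblast and stroma markers, all above the negative controls in all 16 channels, averaged 11.38, 10.04, 10.87 and 10.67 in the controls and 11.76, 10.57, 10.83 and 10.64 with FSH. They were highest in replicate 1 in both groups, as was ID3. Among the controls BMP4 and BMP2 were also highest in replicate 1, and BMP2 had the same order of the 4 controls as these markers, with replicate 2 the lowest. With FSH both these markers and ID3 were lowest in replicate 2, where BMP2 was highest at 14.36. BMP4 with FSH was highest in replicate 3, at 7.85. The part of these cells in the BMP2, BMP4 and ID3 levels was not tested.

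Of 5 endothelial markers, KDR had log2 ratios of 0.81, 1.64, 0.00 and 0.76 in replicates 1 to 4, highest in replicate 2 and lowest in replicate 3, as for BAMBI. KDR was above the negative controls in 8 FSH and 3 control channels, and its part in the member values was not tested. The other 4 had means between -0.10 and 0.07. PECAM1 was above the negative controls in only 1 FSH and 1 control channel, while CDH5, VWF and TEK were above them in all 16 channels. The endothelial list averaged 6.88 to 7.33 in the controls and 7.06 to 7.27 with FSH. The oocyte list averaged 7.02 to 7.05 and 6.98 to 7.07. In it GDF9, which defines oocytes, was above the negative controls in 0 FSH channels and 1 control channel. ZP3, BMP15 and OOEP of the same list were above them in all 16 channels, at mean log2 intensities of 7.20, 7.18 and 7.30. Smooth muscle markers averaged 8.77 to 9.60 in the controls and 8.61 to 9.62 with FSH, immune markers 7.16 to 7.99 and 7.36 to 8.28, and erythrocyte markers 7.0 to 7.28 and 7.10 to 7.23. Replicate 4 stood apart for the immune marker PTPRC, at 9.52 in control and 10.87 with FSH, against 7.26 to 7.58 elsewhere. It did so for the smooth muscle marker DES, at 9.17 and 9.72 against 6.88 to 6.99. Ratios in replicate 4 were 1.35 and 0.56 for these, but below 0 for CD68, CD3E, ACTA2 and CNN1. The part of such cells in the member values of replicate 4 was not tested.

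The genes most like BAMBI were ranked by Pearson's r over the 8 levels, 4 of control and 4 of FSH, among 4905 other named genes with a mean log2 intensity above 9. They were JOSD1 (r = 0.996), PLK2 (0.995), IRF2BP2 (0.992), DCLRE1B (0.992), EGR1 (0.989), BTG1 (0.986), PGR (0.985) and R3HCC1 (0.985). The levels share arrays, and BAMBI falls into 3 low controls and 5 higher levels, so r mainly records which libraries lie on each side of that gap. It is a description with no test. PLK2 had a mean log2 ratio of 3.27, EGR1 of 1.61 and PGR, the progesterone receptor, of 1.42, while R3HCC1 had only 0.54.

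BMP2 was most like NDP (r = 0.981), a secreted ligand of the Wnt receptor FZD4, and THBS1 (0.965), a matrix protein, with mean log2 ratios of 1.52 and 1.96. RBM47 (0.961) and NPY1R (0.955) came next. NDP stood at 13.01, 10.76, 13.16 and 12.06 in the controls, the same order of replicates 1, 4 and 2 as BMP2.

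ID2 was most like SLC37A3 (r = 0.989), BTG3 (0.986), M6PR (0.986) and DNAJB9 (0.979). ID3 was most like LOC100295797 (0.98), OCIAD2 (0.979), ABCG2 (0.974) and KLHL18 (0.971), all of them with negative mean ratios, from -0.58 to -0.20. SMAD6 was most like IL17RC (0.967), KRTCAP3 (0.96), CHAC1 (0.959) and KLHL12 (0.956), whose mean ratios lay between -0.01 and 0.07. No gene was shared between these lists.

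**Figure D4:**
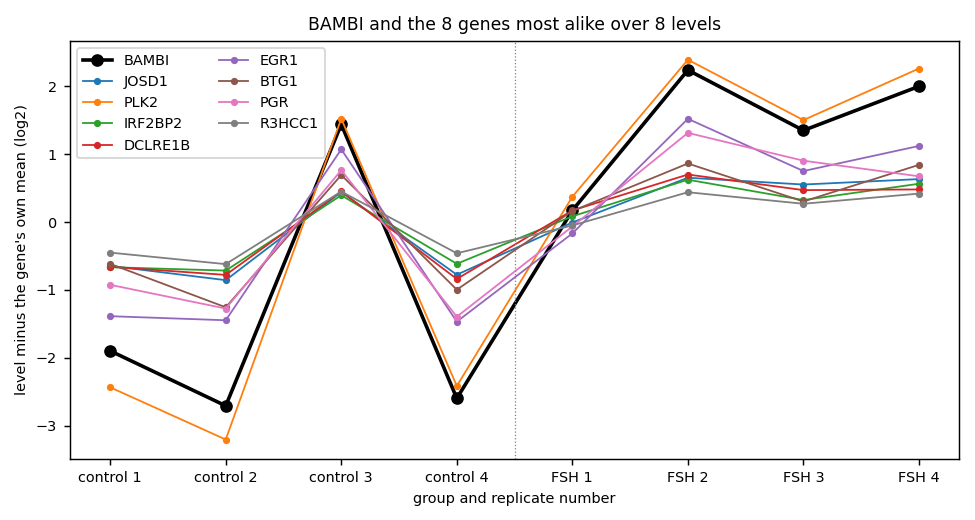
Levels of BAMBI (black) and of the 8 genes most like it, each as log2 level minus its own mean over the 4 control and 4 FSH levels. All lines are low in controls 1, 2 and 4 and high in control 3 and with FSH in replicates 2, 3 and 4, and the amplitude of PLK2 is nearest to that of BAMBI.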

How the data were processed

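Per the labels' protocols, total RNA was amplified in 2 rounds by T7 polymerase and coupled to Cy3 or Cy5. Per the file headers, the deposited scanner tables hold the raw mean intensity of each spot and its local background at 532 and 635 nm, which the authors had not normalised. The scanner software and genome build are not given in the sources used here, so no coordinates or sequences are printed. The deposited series-wide ratios were not used. Intensities were corrected with normexp (offset 50) and loess within arrays (limma 3.58.1, R 4.3.3). Every ratio was expressed as FSH over control and averaged within its dye-swap pair. The deposited names place each dye orientation on a slide of its own, so dye orientation and slide cannot be told apart. A dye bias of a probe that differed between the slides would remain in its mean ratio. Channel levels were taken after Aquantile scaling. Tested probes exceeded the 95th percentile of 153 negative control spots in 1 or more channels on at least 4 of 8 arrays. The replicate means were tested against 0 (lmFit, eBayes, two-sided, Benjamini-Hochberg, threshold 0.05), also on simulated data. Figures used Python 3.11.15, pandas 2.3.3 and matplotlib 3.10.9.

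The pairing comes from the replicate numbers of the labels and a series design of 4 control and 4 treated replicates in dye swap. Same-numbered arrays correlated at r = 0.352 to 0.61 across probes, arrays of other number and opposite orientation at -0.398 to 0.285, and arrays of other number and the same orientation at 0.143 to 0.715. A gene is given by its brightest tested probe. Other probes are given only for the members and the 6 pathway genes of largest mean ratio. Of 21790 probes with a symbol, 20025 symbols were current in RefSeq, 1524 were updated and 241 kept. Members, pathway list and markers were chosen with earlier results of these data known. All members are named, with the 6 pathway genes of largest mean ratio, any past the threshold, and the 8 (BAMBI) or 4 genes most alike in level.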

Additional observations from a re-analysis of the deposited data

Results flagged for a closer look

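In 48 groups of 4 values (control levels, FSH levels and ratios of the 16 probes), 2 held a value far from the other 3 by Dixon's test at the 95% level. Both were levels of the library labelled control of replicate 3. For NOG it was 7.70, against 6.72 to 6.84 in the other controls, and for BAMBI probe 3 it was 7.65, against 6.76 to 6.85. Chance marks about 1 in 20 such groups.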

How the results depend on the processing

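Of the 10 genes, BMP2, BMP4, NOG, BAMBI, ID1 and ID2 stayed above 0 and ID3 below 0 under all 15 alternatives run. The signs of GREM1, SMAD6 and SMAD7 turned. GREM1 was at -0.01 with median centring and -0.19 with FSH in Cy5 only, and SMAD6 was at -0.83 with FSH in Cy5 only. SMAD7 was at -0.03 in the blocked fit without replicate 3, and it had no tested probe under the filter on all 8 arrays. Leaving out each replicate in turn gave -0.02 to 0.05 for GREM1, -0.06 to 0.15 for SMAD6, -0.03 to 0.06 for SMAD7, 2.20 to 3.87 for BAMBI, 1.03 to 2.40 for BMP2, 0.39 to 1.13 for ID2 and -0.99 to -0.39 for ID3. The mean over all probes of a gene was 1.92 for BAMBI and -0.20 for ID3. Over all gene probes, 0 passed over the replicate means, and 0 when each replicate in turn was left out. With the replicate block and dye term 1244 probes passed, without the dye term 1426, with FSH in Cy5 only 1975 and with FSH in Cy3 only 409. With replicate 3 left out of the block fit with a dye term, an alternative chosen after seeing the data, 2610 passed. The member genes past the threshold in these fits numbered 1, 2, 2, 0 and 5. The median of the other pathway genes was -0.04 with FSH in Cy3 only. The causes of these shifts were not tested, and dim probes limit what can be said of BMP4, NOG, GREM1, SMAD7 and ID1.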
